A study of Mus musculus with 4 samples.

Results

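The cytochrome P450 genes described here were all genes on the array whose name begins with Cyp and a family number, apart from Cyp1a1, Cyp1b1 and Cyp51, and apart from names marked as pseudogenes. They numbered 93 of the 29353 named genes on the array and were read by 131 probes. C3H10T1/2, a line of mouse embryo fibroblasts that had been transformed with chemicals, was profiled on one-colour arrays, with 2 arrays from cells exposed to phorone at 2 mM and 2 arrays from unexposed transformed cells (control). Both groups had been transformed in the same way: they received 3-methylcholanthrene at 2.5 µg/ml for 2 days, were left for 4 days, were given the phorbol ester TPA at 100 ng/ml for 2 weeks, and then grew without it for 4 weeks. Phorone is an unsaturated ketone used to deplete glutathione. How long the cells were exposed, and in which vehicle, is not stated. Nothing in the labels ties replicates to separate cultures, and the p-values below may therefore reflect technical spread alone.

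Cytochrome P450 enzymes are haem proteins that insert an oxygen atom into their substrates, using electrons passed on by a reductase. Those of families named 1 to 3 mostly oxidise drugs and other foreign compounds, and the others mostly handle fatty acids, sterols, steroid hormones, retinoic acid and vitamin D. Many are best known from the liver. 3-Methylcholanthrene, used to transform the cells, is itself activated by P450 enzymes.

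The arrays carried probes of 60 bases, and the sequences that the results turn on are shown first. Those of the gene with the largest fall, the gene with the largest rise and a gene that fell within the Cyp2j cluster were these, with chromosomes from the RefSeq annotation of GRCm38.p6 (the files give no position for them).
Cyp2f2 (chromosome 7): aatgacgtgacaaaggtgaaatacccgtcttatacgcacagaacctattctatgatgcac
Cyp3a13 (chromosome 5): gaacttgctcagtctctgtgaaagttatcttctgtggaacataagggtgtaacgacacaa
Cyp2j9 (chromosome 4): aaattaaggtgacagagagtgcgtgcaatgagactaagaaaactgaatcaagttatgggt

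Genes read by 2 probes that could both be tested show how far a value belongs to the probe. The probes of Cyp2d9 and Cyp2j6 are given here, because they disagreed. Capitals mark a run of 27 bases that both Cyp2d9 probes contain. The Cyp2j6 probes share no run longer than 6 bases.
Cyp2d9, brighter probe (chromosome 15): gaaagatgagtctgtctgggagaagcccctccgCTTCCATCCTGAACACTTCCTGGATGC
Cyp2d9, other probe (chromosome 15): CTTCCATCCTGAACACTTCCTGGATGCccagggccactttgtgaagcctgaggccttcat
Cyp2j6, brighter probe (chromosome 4): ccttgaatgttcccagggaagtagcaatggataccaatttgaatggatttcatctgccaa
Cyp2j6, other probe (chromosome 4): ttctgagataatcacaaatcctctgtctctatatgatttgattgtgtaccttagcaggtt

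P450 genes of 1 subfamily can be close in sequence, so the probes were compared with each other. None of the 31 probes that stood for a tested P450 gene shared a run of 20 or more bases with a probe of another gene, whereas 12 of all 131 P450 probes did. Probes were compared with probes only and not with whole transcripts. A match to a relative's RNA outside that relative's own probe would therefore not be seen. The probes of Cyp2j11 and Cyp2j13 could be aligned over 30 bases, of which 28 are identical (capitals mark the identical bases).
Cyp2j11 (chromosome 4): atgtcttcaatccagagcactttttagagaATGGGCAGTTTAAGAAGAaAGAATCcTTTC
Cyp2j13 (chromosome 4): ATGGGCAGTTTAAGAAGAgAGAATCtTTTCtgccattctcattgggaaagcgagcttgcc

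A signal is the log2 value of a spot minus that of its array's 75th percentile, so 0 is the level of that percentile, and values of different probes are not compared. A spot counted as detected when the scanner software called it well above background. Between 51.1% and 52.7% of spots were detected on each array, and no spot was saturated. All 4 arrays lay on 1 slide and in 1 scan, with each group in a slide row of its own, so effects of the row and of phorone cannot be told apart. The defining markers of fibroblasts were present: all 11 measured markers were tested, and 8 were lower with phorone and 0 higher (5 lower when the arrays were scaled to their spike-in control spots instead). Their summed signal was 688 and 725 times the 75th percentile on the phorone arrays, against 1573 and 1630.2 on the control arrays. Of 18 hepatocyte markers, 4 were tested, with Afp (alpha-fetoprotein) and Tat (tyrosine aminotransferase) higher, Hp (haptoglobin) lower and Hpx not called. Alb, Apoa1, Ttr and Hnf4a did not reach detection on both arrays of either group. The summed hepatocyte signal was 3.09 and 2.89 on the phorone arrays, against 1.07 and 1.19 on the control arrays. Without Afp the order turned, with 0.774 and 0.803 on the phorone arrays, against 1.02 and 1.14 on the control arrays. The part of these marker changes in the P450 results was not tested, and in a bulk sample fewer cells of a type and less RNA per cell cannot be told apart.

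Most P450 genes were not detected. On both phorone arrays 24 genes (25.8%) were detected, and on both control arrays 28 genes (30.1%), against 55.2% and 56.6% of all named genes. Of the 93 P450 genes, 53 were detected on no array and 21 on all 4. Roles were assigned by gene name, with all Cyp2j, Cyp2u and Cyp4 genes in the fatty acid and eicosanoid group. All Cyp2a to Cyp2g, Cyp2t, Cyp2ab and Cyp3a genes and Cyp1a2 counted as drug and xenobiotic, including Cyp2c enzymes that oxidise arachidonic acid. The fatty acid and eicosanoid group had the most detected members, 9 of 28 on both phorone arrays and 13 of 28 on both control arrays. In the drug and xenobiotic group, 8 of 44 were detected on both phorone arrays and 9 of 44 on both control arrays.

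**Figure D1:**
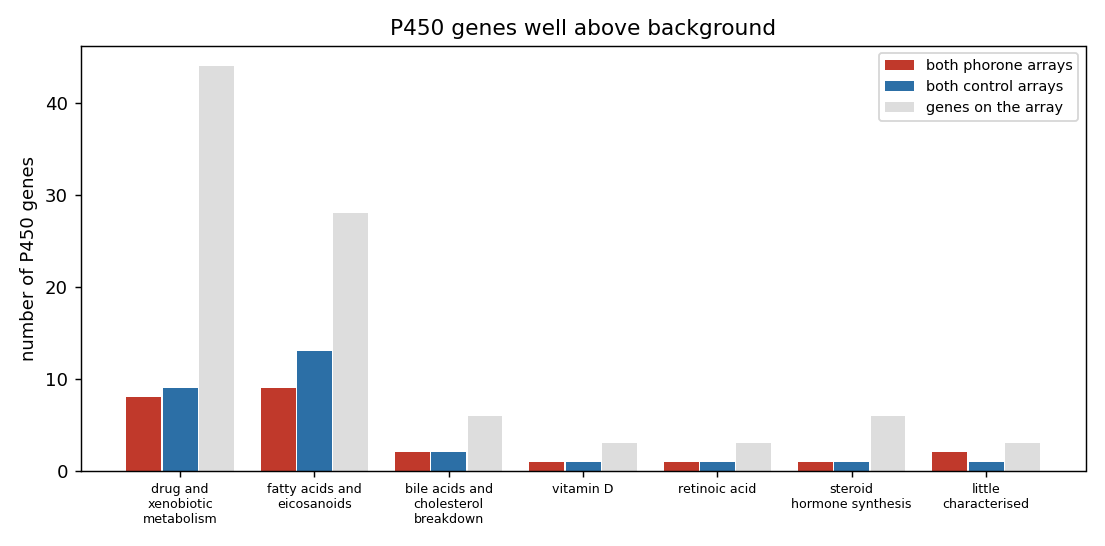
Number of P450 genes detected on both phorone arrays, on both control arrays and present on the array, by role of the enzyme. The drug and xenobiotic group holds 44 genes but only 8 and 9 detected ones, and the fatty acid and eicosanoid group holds 28 genes with 9 and 13 detected.

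A gene was tested when a probe of it was detected on both arrays of at least 1 group, which held for 31 P450 genes and left 62 untested. Of the 31, limma called 8 higher and 10 lower with phorone at an adjusted p under 0.05. Over all 17033 genes tested, 24.3% were called higher, 21.3% lower and 45.5% either way, so calls were common in this comparison as a whole. The P450 genes called made up 58.1% of those tested. Their median log2 fold change was -0.0031, against 0.0839 over all genes. Under scaling to the spike-in controls, which moved the median of all genes to 0.52, 7 P450 genes were higher and 5 lower. Leaving out phorone replicate 1 gave 4 higher and 10 lower, and leaving out phorone replicate 2 gave 3 higher and 7 lower. With no filter on dim probes the calls of Cyp2j11, Cyp2j13, Cyp2s1, Cyp2u1, Cyp4f16, Cyp26b1, Cyp46a1, Cyp4a12a, Cyp4f14 and Cyp4v3 were lost, and with quantile normalisation after another background correction, normexp, those of Cyp2b13, Cyp2j11, Cyp2s1 and Cyp4f14. Over all alternatives the log2 fold change ranged from -5.96 to -3.50 for Cyp2f2, from -4.55 to -1.69 for Cyp2j9, from -3.09 to -0.43 for Cyp4b1, from 1.15 to 2.67 for Cyp3a13 and from 0.50 to 1.56 for Cyp2d26.

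Several P450 genes were detected in 1 group only. Cyp2f2, Cyp2j9, Cyp4b1, Cyp4a12a, Cyp4f14 and Cyp2b13 were detected on both control arrays and on neither phorone array, which makes 6 genes, where 3.16% of all tested genes had this pattern. Cyp2s1 and Cyp2c37 were detected on both phorone arrays and on neither control array, a pattern found in 1.38% of all tested genes. For such a gene the dim group has only a bound, and its fold is given as "at least": the mean of the bright group set against a floor for each dim array, which is the lowest detected probe or, if higher, the gene itself. These bounds hold for the background correction used here. Normexp was run with an offset of 50 added to each corrected signal, which by itself draws the folds of dim genes towards 0. Under normexp with the same scaling the log2 fold changes of all 8 genes were nearer to 0 than their bounds, or past it: -3.50 for Cyp2f2, -1.69 for Cyp2j9, -0.43 for Cyp4b1, -0.69 for Cyp4a12a, -0.05 for Cyp4f14, 0.04 for Cyp2b13, 0.50 for Cyp2s1 and 0.55 for Cyp2c37.

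**Figure D2:**
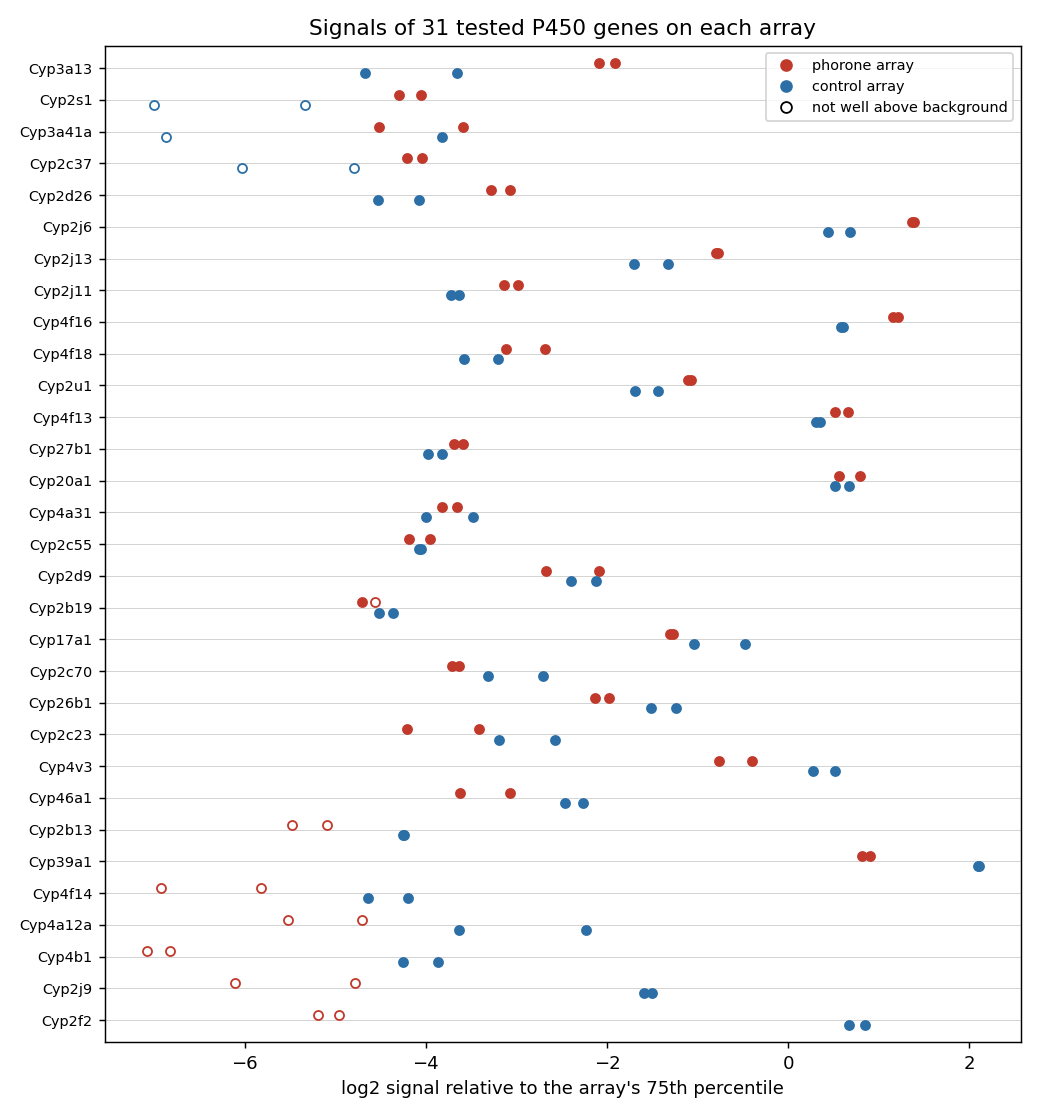
Log2 signal of the 31 tested P450 genes on each of the 2 phorone arrays (red) and 2 control arrays (blue), with open circles for spots not well above background and genes sorted by fold change. Cyp2f2 and Cyp2j9 at the bottom are open on both phorone arrays, and Cyp3a13 at the top stands higher on both phorone arrays than on both control arrays.

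Among drug and xenobiotic enzymes, 11 of 44 were tested, 2 were higher, 2 lower and 7 not called (median log2 fold change -0.12). Cyp2f2, an enzyme best known from airway cells, where it activates naphthalene, fell most of all P450 genes tested here. Its log2 signal was -5.19 and -4.96 on the phorone arrays, against 0.68 and 0.85 on the control arrays. Both phorone arrays were not well above background and both control arrays were far above them. Cyp2f2 was at least 43.3-fold lower with phorone (fitted log2 fold change -5.84, SE 0.15, adjusted p by limma = 0.0001865). Cyp2b13, of a subfamily whose enzymes oxidise drugs, stood at -5.09 and -5.48 on the phorone arrays, against -4.24 and -4.25 on the control arrays. It was at least 1.34-fold lower (adjusted p by limma = 0.007845), and this call was lost under spike-in scaling (-0.60) and under normexp (0.04 with the same scaling).

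Cyp3a13 rose most of the P450 genes detected on all 4 arrays. Cyp3a enzymes oxidise a wide range of drugs and steroids. Cyp3a13 stood at -2.09 and -1.91 on the phorone arrays, against -3.66 and -4.67 on the control arrays, so the groups did not overlap and the control arrays differed from each other by more than the phorone arrays did. The log2 fold change was 2.16 (SE 0.35, adjusted p by limma = 0.007512), a 4.48-fold rise with the background correction used here. On control replicate 2 Cyp3a13 lay close to the lowest detected probe of that array, so the size of its rise is uncertain. Under normexp with quantile normalisation its log2 fold change was 1.15. Cyp2d26, of a subfamily whose human member CYP2D6 oxidises many drugs, stood at -3.07 and -3.28 on the phorone arrays, against -4.08 and -4.52 on the control arrays. The log2 fold change of Cyp2d26 was 1.13 (SE 0.20, adjusted p by limma = 0.009582), and 0.50 under normexp with quantile normalisation. Cyp3a13 and Cyp2d26 remained called higher under every alternative tried for them.

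The other members of the drug and xenobiotic group were not called. Cyp2c37, one of the Cyp2c enzymes that oxidise arachidonic acid, stood at -4.21 and -4.04 on the phorone arrays, against -6.03 and -4.79 on the control arrays, where it was not well above background. The bound on its fold, phorone over control, was 1.60 (adjusted p by limma = 0.0561), and it was called higher under 7 alternatives, including without control replicate 1 (log2 fold change 0.66) and without control replicate 2 (1.90). The other Cyp2c37 probe, detected on no array, stood at -6.63 and -6.70 on the phorone arrays, against -5.46 and -5.11 on the control arrays. Cyp3a41a rested on 1 dark control array: it stood at -4.51 and -3.59 on the phorone arrays, against -3.82 and -6.87 on the control arrays. Its log2 fold change of 1.30 (SE 1.01) was called without control replicate 1 (2.82) and was -0.23 without control replicate 2. Cyp3a41a has near-identical relatives, so its signal may be shared. Cyp2c70 had a log2 fold change of -0.66 (SE 0.22), and Cyp2c23, labelled Cyp2c44 in the array design, of -0.93 (SE 0.34). Without control replicate 2 Cyp2c70 was called lower (-0.96), and without phorone replicate 1 Cyp2c23 was (-1.32). Cyp2c55 (-0.0031, SE 0.14), Cyp2b19 (-0.19, SE 0.14) and Cyp2d9 (-0.12, SE 0.23) were close to 0.

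Cyp2d9 was read differently by its overlapping probes, shown above. Its brighter probe stood at -2.09 and -2.67 on the phorone arrays, against -2.12 and -2.40 on the control arrays. The other probe stood at -4.25 and -3.80 on the phorone arrays, against -2.66 and -2.97 on the control arrays, and limma called it lower when every probe was tested (log2 fold change -1.21, SE 0.21, adjusted p = 0.009049). The groups overlapped on the brighter probe and were apart on the other, and the mean of both probes was called lower (-0.66).

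Of the 28 P450 genes placed in the fatty acid and eicosanoid group, 13 were tested, 5 were higher and 5 lower (median log2 fold change 0.26). The Cyp2j enzymes, epoxygenases of arachidonic acid, went both ways within a gene cluster on chromosome 4. In the order of the RefSeq annotation of GRCm38.p6, Cyp2j13, Cyp2j11, Cyp2j6 and Cyp2j9 were tested there, and the first 3 of these were higher while Cyp2j9 was lower; for Cyp2j6 this held on the brighter probe only. Cyp2j6 and Cyp2j9 are neighbours in that order. Cyp2j12, Cyp2j8, Cyp2j5 and Cyp2j7 of the same cluster were detected on no array.

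Cyp2j9, known in the mouse as a brain enzyme that hydroxylates arachidonic acid, stood at -4.79 and -6.10 on the phorone arrays, against -1.51 and -1.59 on the control arrays. The phorone values were not well above background and lay well below both control values. Cyp2j9 was at least 8.69-fold lower (adjusted p by limma = 0.002818) and was called under every alternative that tested it. Cyp2j6 stood at 1.39 and 1.37 on the phorone arrays, against 0.68 and 0.44 on the control arrays, with a log2 fold change of 0.82 (SE 0.14, adjusted p by limma = 0.009001). Its other probe stood at -4.39 and -4.23 on the phorone arrays, against -3.49 and -3.63 on the control arrays, a log2 fold change of -0.75 (SE 0.14, adjusted p by limma = 0.01108 with every probe tested). The probes of Cyp2j6 were thus called in opposite directions, which held for 208 of the 5612 genes with more than 1 tested probe, and their mean gave 0.03 and no call.

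Cyp2j13 stood at -0.78 and -0.80 on the phorone arrays, against -1.33 and -1.70 on the control arrays, a log2 fold change of 0.73 (SE 0.17, adjusted p by limma = 0.02073). Cyp2j11 stood at -2.98 and -3.13 on the phorone arrays, against -3.63 and -3.73 on the control arrays, a log2 fold change of 0.62 (SE 0.13, adjusted p by limma = 0.01607). Neither gene's groups overlapped on these probes. Cyp2j13 was read by 3 probes and Cyp2j11 by 2, and their other probes were detected on no array. Both calls were lost without phorone replicate 1 (0.72 for Cyp2j13 and 0.55 for Cyp2j11) and without phorone replicate 2 (0.74 and 0.70), and the Cyp2j11 call also under spike-in scaling (1.06).

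**Figure D3:**
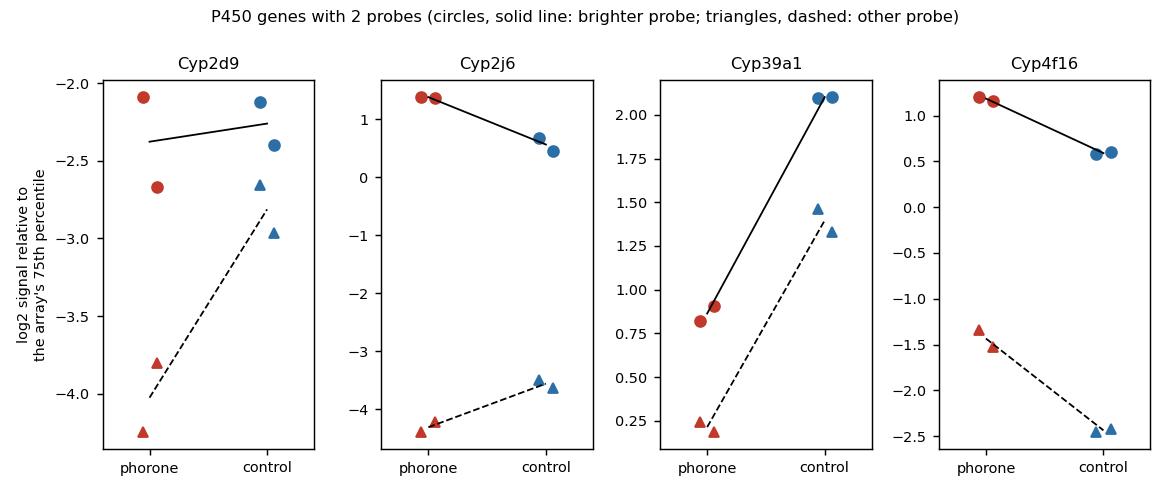
Log2 signal of the 4 P450 genes with 2 tested probes, on phorone arrays (left, red) and control arrays (right, blue), with lines joining the group means and a separate axis for each gene. The lines of Cyp39a1 and Cyp4f16 slope the same way for both probes, those of Cyp2j6 slope in opposite ways, and those of Cyp2d9 differ in steepness.

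The Cyp4 enzymes hydroxylate the far end of fatty acids. Cyp4b1, which also activates some lung toxicants, stood at -7.08 and -6.82 on the phorone arrays, against -3.86 and -4.26 on the control arrays, and was at least 1.53-fold lower (adjusted p by limma = 0.0007426). Cyp4a12a, labelled Cyp4a12 in the array design and known in the mouse for hydroxylating arachidonic acid, stood at -4.71 and -5.52 on the phorone arrays, against -3.63 and -2.24 on the control arrays. On this probe it was at least 3.24-fold lower (adjusted p by limma = 0.02459). A further probe, named Cyp4a12a in the array design, was detected on no array. That probe stood at -5.62 and -4.89 on the phorone arrays, against -4.99 and -5.33 on the control arrays, so the groups overlapped. Cyp4a12b is nearly identical to Cyp4a12a, so the signal may be shared. Cyp4f14, which inactivates leukotrienes, stood at -6.93 and -5.82 on the phorone arrays, against -4.19 and -4.64 on the control arrays, and was at least 1.20-fold lower (adjusted p by limma = 0.01452). These 3 genes were not well above background on either phorone array. The Cyp4a12a call was lost without control replicate 2 (-1.48) and without phorone replicate 2 (-1.77), and its log2 fold change ranged from -2.88 to -0.69 over the alternatives. That of Cyp4f14 ranged from -2.51 to -0.05, and its call was lost without control replicate 1 (-1.73) and under normexp (-0.05).

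Cyp4v3, whose human counterpart CYP4V2 acts on fatty acids in the eye, stood at -0.40 and -0.76 on the phorone arrays, against 0.27 and 0.51 on the control arrays. Its log2 fold change was -0.97 (SE 0.18, adjusted p by limma = 0.0114) and its call was lost under spike-in scaling (-0.54). Cyp4f16, of the leukotriene-hydroxylating subfamily, was higher, at 1.21 and 1.16 on the phorone arrays, against 0.58 and 0.60 on the control arrays. The log2 fold change of Cyp4f16 was 0.60 (SE 0.12, adjusted p by limma = 0.01368). Both of its probes were called higher, the other by 1.00 (SE 0.14). The call of Cyp4f16 was lost under spike-in scaling (1.03) and without phorone replicate 1 (0.57) or phorone replicate 2 (0.62).

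Cyp2u1, which hydroxylates long-chain fatty acids, stood at -1.08 and -1.11 on the phorone arrays, against -1.69 and -1.44 on the control arrays. Its log2 fold change of 0.47 (SE 0.14, adjusted p by limma = 0.0463) was the smallest among called P450 genes. The call was lost without control replicate 1 (0.35), phorone replicate 1 (0.46) or phorone replicate 2 (0.49), with the replicate number as a block (0.47, adjusted p = 0.0765) and under 5 other alternatives. Cyp4f13 (0.26, SE 0.13), Cyp4f18 (0.50, SE 0.22) and Cyp4a31 (0.0066, SE 0.21) were not called.

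**Figure D4:**
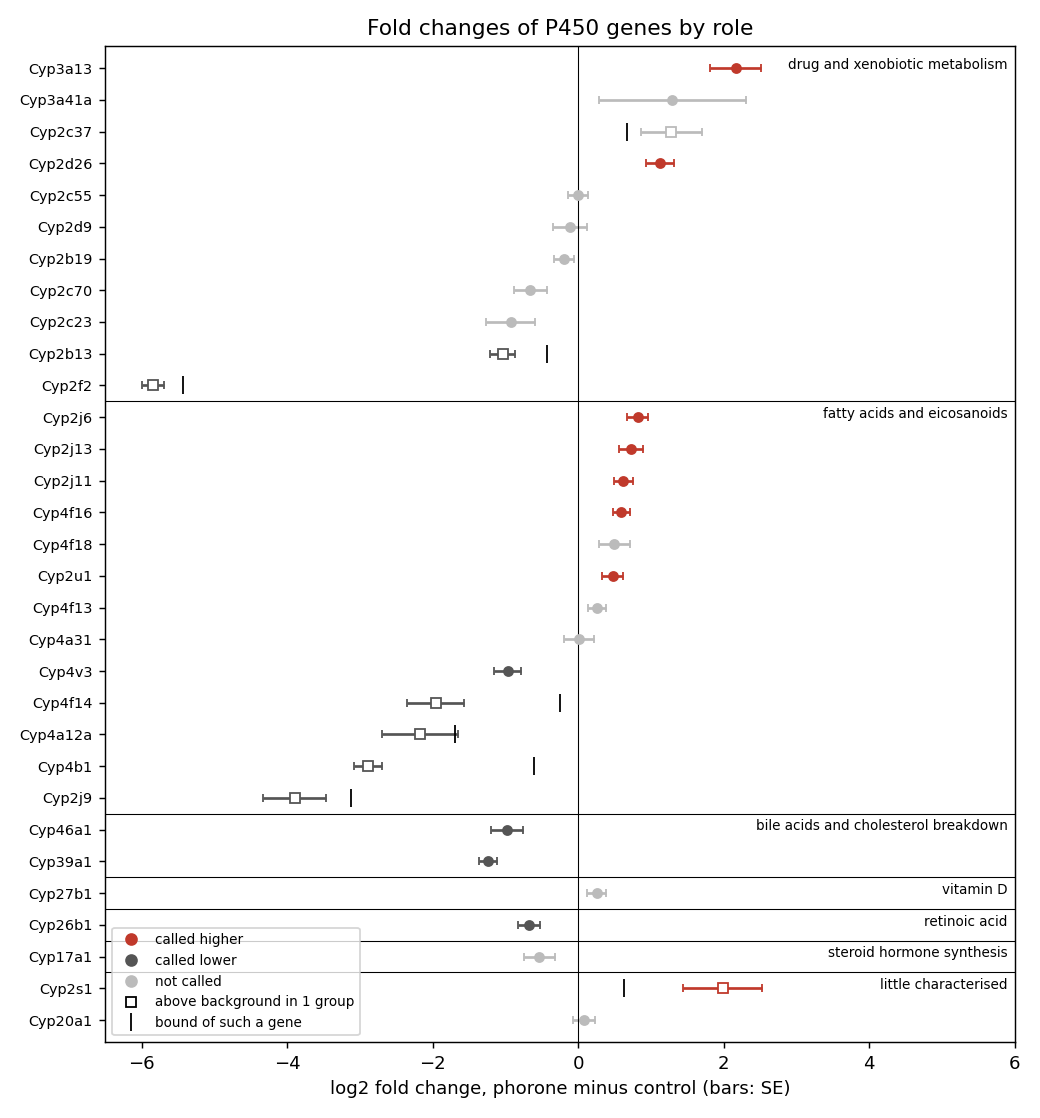
Log2 fold change (phorone minus control) of the 31 tested P450 genes by role, with SE bars, coloured by call. Squares are genes detected in 1 group only, and the black tick beside each is the bound that replaces its fold. The bounds of Cyp4b1 and Cyp4f14 lie much nearer to 0 than their fitted values, whereas that of Cyp2f2 stays below -5.

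Both tested genes placed in the group of bile acid formation and cholesterol breakdown were lower, of 6 placed there. No Cyp2c gene was placed in this group. Cyp39a1, which hydroxylates oxysterols on the way to bile acids, stood at 0.82 and 0.91 on the phorone arrays, against 2.10 and 2.10 on the control arrays. The arrays within each group were close and the groups far apart, with a log2 fold change of -1.24 (SE 0.12, adjusted p by limma = 0.001936). Its other probe stood at 0.24 and 0.18 on the phorone arrays, against 1.46 and 1.33 on the control arrays, a log2 fold change of -1.18 (SE 0.13). The call of Cyp39a1 was lost under spike-in scaling alone (-0.80). These were its probes, which share no run longer than 6 bases.
Cyp39a1, brighter probe (chromosome 17): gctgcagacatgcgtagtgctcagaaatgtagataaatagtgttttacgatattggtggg
Cyp39a1, other probe (chromosome 17): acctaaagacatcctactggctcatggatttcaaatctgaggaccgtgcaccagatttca

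Cyp46a1, the cholesterol hydroxylase best known from neurons, stood at -3.07 and -3.62 on the phorone arrays, against -2.47 and -2.26 on the control arrays. Its log2 fold change was -0.98 (SE 0.22, adjusted p by limma = 0.01969). The call was lost under spike-in scaling (-0.55), without control replicate 2 (-0.88) and without phorone replicate 2 (-0.71). Cyp7a1, the rate-limiting enzyme of bile acid synthesis, was detected on 1 phorone array only, and Cyp7b1, Cyp8b1 and Cyp27a1 on none.

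Cyp26b1, which breaks down retinoic acid, was lower, at -1.97 and -2.13 on the phorone arrays, against -1.24 and -1.52 on the control arrays. Its log2 fold change was -0.67 (SE 0.15, adjusted p by limma = 0.02115), and the call was lost without control replicate 1 (-0.53), phorone replicate 1 (-0.75) or phorone replicate 2 (-0.59) and under spike-in scaling (-0.24). The other enzymes of that family, Cyp26a1 and Cyp26c1, were each detected on 1 control array. Cyp26c1 was read by a pair of probes of identical sequence, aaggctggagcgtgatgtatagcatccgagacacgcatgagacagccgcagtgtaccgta (chromosome 19). On control replicate 2 these identical probes stood at -4.36, detected, and at -7.10, not detected.

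Cyp2s1, a little characterised enzyme of skin and airway epithelia, stood at -4.30 and -4.05 on the phorone arrays, against -5.33 and -7.00 on the control arrays, which were not well above background. It was at least 1.55-fold higher (adjusted p by limma = 0.03559), and the call was lost without phorone replicate 2 (1.86) and under normexp with quantile normalisation (0.30). Over the alternatives the log2 fold change of Cyp2s1 ranged from 0.30 to 2.82. Cyp20a1, an enzyme with no settled substrate, was not called (0.08, SE 0.15). Of the vitamin D enzymes, Cyp27b1, which makes the active hormone, was tested and not called (0.26, SE 0.13), and Cyp24a1 and Cyp2r1 were detected on no array. Of the 6 steroid hormone enzymes, Cyp17a1, which makes androgen precursors, was the single one tested (-0.54, SE 0.21, adjusted p by limma = 0.095). It was called lower without control replicate 1 (-0.82). Cyp11a1, which starts steroid synthesis from cholesterol, was detected on 1 phorone array.

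The untested drug and xenobiotic genes were Cyp1a2, Cyp2a4, Cyp2a5, Cyp2a12, Cyp2a22, Cyp2ab1, Cyp2b9, Cyp2b10, Cyp2c29, Cyp2c38, Cyp2c39, Cyp2c40, Cyp2c50, Cyp2c54, Cyp2c65, Cyp2c66, Cyp2c69, Cyp2d10, Cyp2d11, Cyp2d12, Cyp2d13, Cyp2d22, Cyp2d34, Cyp2d40, Cyp2e1, Cyp2g1, Cyp2t4, Cyp3a11, Cyp3a16, Cyp3a25, Cyp3a44, Cyp3a57 and Cyp3a59. Among them are the usual liver enzymes of drug induction, Cyp2b10 and Cyp3a11, and the ethanol-oxidising Cyp2e1, all detected on no array. Cyp2d22 was detected on 1 control array and Cyp3a16 on 1 phorone array. The untested fatty acid genes, beside the Cyp2j ones above, were Cyp4a10, Cyp4a12b, Cyp4a14, Cyp4a29, Cyp4a30b, Cyp4f15, Cyp4f17, Cyp4f37, Cyp4f39, Cyp4f40 and Cyp4x1. Of these Cyp4f17 was detected on 1 phorone and 1 control array, Cyp4f40 on 1 phorone array and Cyp4a12b on 1 control array. Cyp11b1, Cyp11b2, Cyp19a1, Cyp21a1 and Cyp2w1 were detected on no array.

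The sequence before the start of the Cyp2j genes was examined because these neighbours were called in both directions, although the call of Cyp2j6 rests on its brighter probe. Windows of 300 bases around each annotated start come from RefSeq on GRCm38.p6, read 5′ to 3′ along the gene, and capitals mark a motif found by its letters on either strand. The antioxidant response element core was searched as TGACNNNGC, the core bound by the aryl hydrocarbon receptor as GCGTG, and the nuclear receptor half-site as AGGTCA.
Cyp2j13, chr4:96077491-96077790, minus strand: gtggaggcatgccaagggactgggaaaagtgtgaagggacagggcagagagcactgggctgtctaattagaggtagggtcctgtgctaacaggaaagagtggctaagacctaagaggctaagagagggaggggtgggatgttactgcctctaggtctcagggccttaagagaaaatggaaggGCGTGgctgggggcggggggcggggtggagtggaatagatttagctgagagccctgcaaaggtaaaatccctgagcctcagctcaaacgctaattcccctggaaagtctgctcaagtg
Cyp2j11, chr4:96348631-96348930, minus strand: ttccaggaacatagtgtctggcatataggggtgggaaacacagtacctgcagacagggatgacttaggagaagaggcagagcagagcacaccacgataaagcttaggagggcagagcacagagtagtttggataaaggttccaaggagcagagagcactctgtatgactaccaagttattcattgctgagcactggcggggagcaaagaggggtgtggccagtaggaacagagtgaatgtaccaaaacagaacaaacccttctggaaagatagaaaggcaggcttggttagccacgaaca
Cyp2j6, chr4:96553602-96553901, minus strand: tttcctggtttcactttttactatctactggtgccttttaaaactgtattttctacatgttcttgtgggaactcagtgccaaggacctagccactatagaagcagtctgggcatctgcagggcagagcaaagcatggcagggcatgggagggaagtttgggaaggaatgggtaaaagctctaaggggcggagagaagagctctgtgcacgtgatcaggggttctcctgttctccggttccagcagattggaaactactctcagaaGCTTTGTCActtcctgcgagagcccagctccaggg
Cyp2j9, chr4:96591436-96591735, minus strand: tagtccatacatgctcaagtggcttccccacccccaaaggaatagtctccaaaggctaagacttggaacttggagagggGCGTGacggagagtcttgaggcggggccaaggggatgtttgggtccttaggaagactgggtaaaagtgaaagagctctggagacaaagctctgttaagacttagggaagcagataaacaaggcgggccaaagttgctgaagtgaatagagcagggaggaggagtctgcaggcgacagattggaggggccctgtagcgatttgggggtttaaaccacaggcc

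The 4 windows did not hold the same motif. Cyp2j6 had the antioxidant core on the other strand, after its start, Cyp2j13 and Cyp2j9 had GCGTG, and Cyp2j11 had none of the 3 motifs. Of the 25 tested P450 genes with a window, the antioxidant core was found in 3 (Cyp2j6, Cyp4f14 and Cyp4f18), against 12.4% of all 32851 windows. A gene counted if any of its windows held the motif, whereas these shares are over single windows, so the measures are unlike. GCGTG was found in 7 of the 25, against 32.4% of all windows, and these were 2 genes called higher (Cyp2j13, Cyp4f16), 4 called lower (Cyp2j9, Cyp4f14, Cyp4v3, Cyp46a1) and Cyp20a1. AGGTCA was found in 4 of the 25 (Cyp2b13, Cyp2b19, Cyp2c70 and Cyp2f2), against 16.3% of all windows. A match is a description of these letters and not a binding site.

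P450 enzymes depend on partner proteins. Of 12 electron donors and partners on the array, 11 were tested. Of these, 6 were higher and 2 lower (median log2 fold change 0.47), against 24.3% and 21.3% of all genes tested. Por, the reductase that feeds electrons to microsomal P450 enzymes, stood at 5.39 and 5.38 on the phorone arrays, against 4.39 and 4.52 on the control arrays, a log2 fold change of 0.93 (SE 0.12, adjusted p by limma = 0.004537). Pgrmc1, a haem-binding partner of P450 enzymes, was higher by 1.18 (SE 0.12) and Cyb5r1, a cytochrome b5 reductase, by 0.60 (SE 0.18). Cyb5b, a cytochrome b5, fell by 0.72, and Cyb5r3, a further reductase of that kind, fell by 0.59. Por and Pgrmc1 were called under every alternative. Leaving out phorone replicate 1 or phorone replicate 2, or scaling to the spike-ins, left 2 members higher and 0 lower, and the replicate number as a block left 3 higher and 2 lower. Cyb5r1 was not called without control replicate 1 (0.39), phorone replicate 1 (0.63) or phorone replicate 2 (0.57), nor Cyb5b without phorone replicate 1 (-0.67) or phorone replicate 2 (-0.76), nor Cyb5r3 without control replicate 2 (-0.43), phorone replicate 1 (-0.59) or phorone replicate 2 (-0.58). The mean of the Cyb5b probes was 0.08 and not called. Without control replicate 1, 3 members were higher.

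Of 11 tested genes of haem synthesis, 5 were higher and 1 lower (median 0.32), against 24.3% and 21.3% of all genes tested. Alas1, which makes the first intermediate of haem, stood at 3.95 and 3.97 on the phorone arrays, against 2.78 and 2.70 on the control arrays, a log2 fold change of 1.22 (SE 0.12, adjusted p by limma = 0.002003). Slc25a38, the mitochondrial carrier that supplies glycine to it, was higher by 1.30 (SE 0.13), and Cpox, a later enzyme, by 0.59 (SE 0.15). Ppox, the next enzyme after Cpox, fell by 0.72. Alas1 and Slc25a38 were called under every alternative, and they were the 2 genes left higher, with 0 lower, under spike-in scaling, without phorone replicate 1 or without phorone replicate 2. With the replicate number as a block 3 were higher and 1 lower. Cpox was not called without control replicate 2 (0.46), phorone replicate 1 (0.52) or phorone replicate 2 (0.65), nor Ppox without control replicate 2 (-0.51), phorone replicate 1 (-0.80) or phorone replicate 2 (-0.63).

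Of 21 tested receptors and factors known to control P450 genes, 4 were higher and 7 lower, against 24.3% and 21.3% of all genes. The median of the list was -0.20. The largest rises were in nuclear receptors of sterols and foreign compounds: Nr1h3 (LXR alpha) by 1.50 (SE 0.13), Nr1i3 (the constitutive androstane receptor) by 1.18 (SE 0.15) and Nr1h4 (the bile acid receptor) by 1.12 (SE 0.20). Hlf, a circadian factor that drives xenobiotic genes in liver, fell by 3.74. Dbp, another circadian factor, fell by 1.94. Vdr, the vitamin D receptor, fell by 0.997 (SE 0.13), a call lost under spike-in scaling (-0.56). Hlf was detected on only 1 phorone array, so its fold change is uncertain. Ahr, the aryl hydrocarbon receptor, stood at 1.21 and 0.99 on the phorone arrays, against 2.01 and 1.09 on the control arrays, and was not called (-0.45, SE 0.32), though it was called lower without control replicate 2 (-0.91). Nfe2l2, the antioxidant factor NRF2, was not called (0.29, SE 0.17) and was called higher without control replicate 1 (0.48). Nr1i2 (the pregnane X receptor), Hnf4a and Ppara were untested. Spike-in scaling left 4 higher and 2 lower, and leaving out phorone replicate 2 left 3 higher and 4 lower.

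Of 10 tested phase II genes, which conjugate or hydrolyse what P450 enzymes have oxidised, 2 were higher and 3 lower (median -0.31). Over all genes tested, 24.3% were called higher and 21.3% lower. Ugt2a1, a glucuronosyltransferase, was at least 1.89-fold higher and Ephx3, an epoxide hydrolase, at least 1.68-fold. The Ephx3 call was lost under normexp with quantile normalisation, where its log2 fold change was 0.31, nearer to 0 than its bound. The Ugt2a1 call was lost with no filter on dim probes (1.77). Sult1a1, a sulfotransferase, was at least 2.77-fold lower, and the glucuronosyltransferase gene Ugt1a6b fell by 1.76. Ephx2, which opens the epoxides that Cyp2j enzymes make, fell by 0.85 (SE 0.22). Ephx2 was detected on only 1 phorone array, so its fold change is uncertain. Its call was lost under normexp (-0.11), under spike-in scaling (-0.41) and without control replicate 1 (-0.92), control replicate 2 (-0.77) or phorone replicate 2 (-0.56). The prostanoid P450 enzyme Ptgis, prostacyclin synthase, fell by 1.62 (SE 0.14), and Tbxas1 was untested. Of the P450 genes left out here, Cyp1a1 was at least 7.37-fold higher. Cyp1b1 fell by 0.81 and was not called under spike-in scaling (-0.38) or without phorone replicate 2 (-0.77). Cyp51 was not called on its brightest probe (-0.38). With every probe tested, a further Cyp51 probe had a log2 fold change of -1.39 (adjusted p by limma = 0.002839) and another of -0.44, not called. The mean of the Cyp51 probes was called lower (-0.74).

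**Figure D5:**
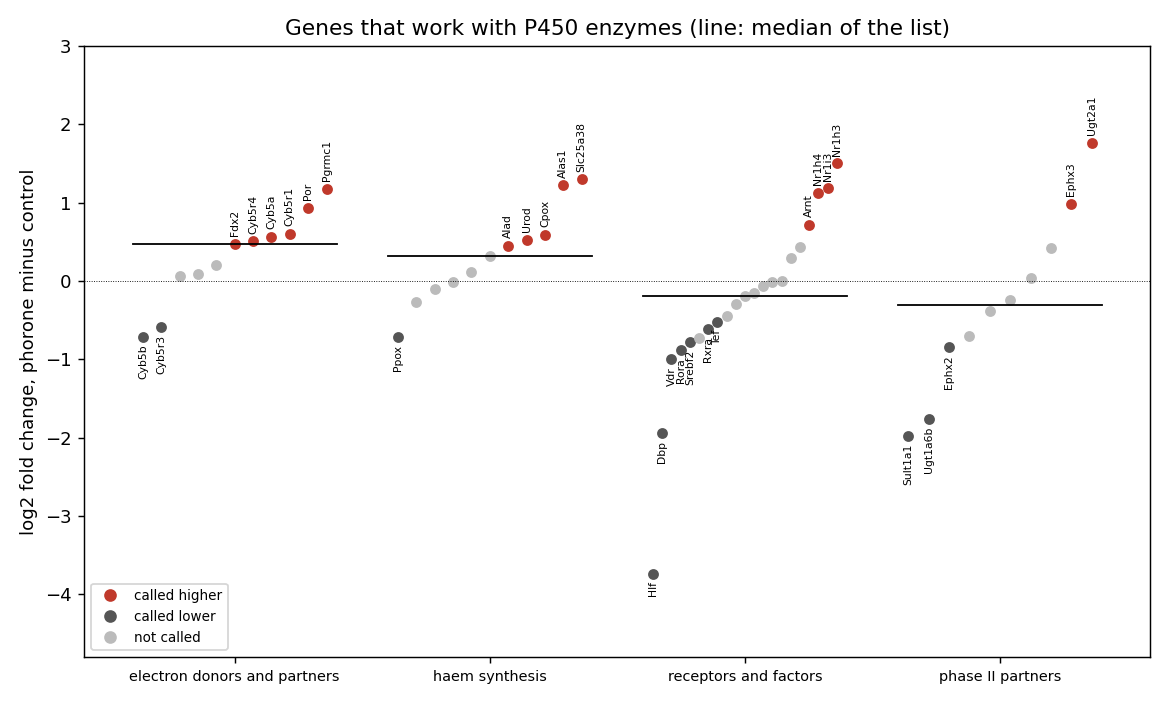
Log2 fold change (phorone minus control) of the genes that work with or control P450 enzymes, in 4 lists, with points coloured by call, called genes named and a line at the median of each list. Por and Pgrmc1 lead the electron donors, and Hlf lies below -3 among the receptors and factors.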

How the data were processed

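Total RNA from 4 samples was hybridised to a custom Agilent mouse array with 1 dye (Cy3). Per the file headers, the deposited intensity is Feature Extraction 10.7.3.1 processed signal, background-subtracted and detrended by the authors. A value table that the authors deposited is in log2: each column equalled log2 processed signal minus the 75th percentile to within an SD of 0.0223, with column medians of -4.37 and -4.30 (phorone) and -4.39 and -4.35 (control).

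Here log2 processed signal minus each array's 75th percentile over spots outside the controls was used, 111 probes with outlier flags were left out, and the brightest probe detected on both arrays of a group stood for its gene (RefSeq symbol where the accession matched, 69.3% of gene probes). The authors' detection flag was used as deposited. The comparison used limma 3.58.1 under R 4.3.3 (lmFit and eBayes, two-sided, 2 residual and 3.03 prior degrees of freedom) and Benjamini-Hochberg adjustment over 17033 genes, threshold 0.05. The code was tested on simulated data. The number of arrays limits the precision. Every tested P450 gene is named; of other lists, up to 3 called genes each way by size, plus Por, Alas1, Ahr and Nfe2l2. A gene of the receptor list is not reported here and is left out of its counts. The members and lists were chosen with earlier results of these data known. Over genes, differences between replicates 1 and 2 correlated by -0.0199 between groups, so no effect shared by replicate number was seen. This does not settle whether the samples were paired, and the main fit treated them as unpaired. Normalisation, background (normexp with an offset of 50), dim-probe filter, probe choice and left-out replicates were varied.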

Additional observations from a re-analysis of the deposited data

How the results depend on the processing

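Of the 18 P450 calls, all kept their direction under every alternative that tested them except Cyp2b13, which stood at 0.041 under normexp with the 75th percentile. With every probe tested, the direction counted here is that of the brightest probe, and the other Cyp2j6 probe was called lower (-0.75). Cyp2f2, Cyp2j9, Cyp4b1, Cyp3a13 and Cyp2d26 were called under all alternatives that tested them. With no filter on dim probes 10 of the 18 calls were lost, against 8 under spike-in scaling and 8 without phorone replicate 2; the cause was not tested. With no filter 3 P450 genes were higher and 6 lower, and 2305 of all genes were higher. Under spike-in scaling 5 P450 genes and 1208 of all genes were lower, and the P450 median was 0.43. With detection required on all 4 arrays 6 P450 genes were lower: the 6 lower genes detected in 1 group were then not tested, and Cyp2c70 (-0.66) and Cyp2c23 (-0.93) were newly called. Leaving out 1 array gave 3 to 9 P450 genes higher and 7 to 10 lower, 2086 to 3961 genes higher and 2537 to 3539 lower over all genes, and a P450 median of -0.25 to 0.020. With detection on at least 1 array 40 P450 genes were counted, and 21 on all 4. Uncalled genes changed sign as follows. Cyp4a31 was at -0.011 under quantile normalisation and -0.025 under median scaling, and between -0.25 and 0.26 with 1 array left out. Cyp2d9 was at 0.32 under spike-in scaling and 0.047 under normexp, and between -0.41 and 0.17 with 1 array left out. Cyp2c55 was at 0.43 under spike-in scaling, 0.16 under normexp and 0.0012 in the deposited table, and between -0.12 and 0.11 with 1 array left out. Cyp2b19 was at 0.24 under spike-in scaling and 0.13 under normexp. With 1 array left out Cyp3a41a lay between -0.23 and 2.82 and Cyp20a1 between -0.035 and 0.20. With the replicate number as a block 8 P450 genes were higher and 11 lower (3631 and 3369 over all genes). The signals of genes near background are limited by the background itself, and their folds are bounds.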
